A study of Mus musculus with 4 samples.

Results

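The regions described here are the accessible sites of the genes that acidify the lysosome and build its membrane and degradative interior, in mouse BMDMs (bone marrow-derived macrophages) profiled by ATAC-seq, an assay in which the Tn5 transposase tags open DNA. Peaks from the 4 libraries were joined into regions wherever they shared 1 bp or more, and a region was taken when the gene assigned to its highest peak in the deposited files was a subunit or accessory protein of the vacuolar proton pump (symbols starting with Atp6v or Atp6ap) or 1 of 16 listed lysosomal genes. This gave 179 of 60710 regions (0.295%). They belonged to 38 of the 42 protein-coding genes whose symbols fit, with 105 regions at 22 of 26 pump genes and 74 regions at the 16 listed genes. No region carried the name of Atp6v0a2, Atp6v1b1, Atp6v1c2 or Atp6v1fnb.

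The cells were wild-type C57BL/6 BMDMs from mice aged 8 to 12 weeks, differentiated for 6 days with L929 supernatant, which supplies the macrophage growth factor MCSF. The control group was left without cytokine (n = 2 libraries), and the other (n = 2 libraries) was given 20 ng/ml of IL-4 for 1 h. This cytokine signals through STAT6 to polarize macrophages toward the alternative state, and the comparison asked whether accessibility at these genes differed after the short stimulation. Nuclei were isolated from bulk cells, so fewer cells with an open site and a less open site in each cell cannot be told apart. The study describes 2 biological replicates, but no label ties a library to an animal, so the tests measure the spread between these libraries.

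The lysosome degrades material taken up by phagocytosis and autophagy, and macrophages are rich in it. Its lumen is acidified by the vacuolar ATPase, a rotary pump whose cytosolic V1 sector hydrolyzes ATP and whose membrane-embedded V0 sector moves protons. Many lysosomal genes carry the CLEAR element in their promoters, a palindromic motif bound by the MiT/TFE transcription factors TFEB, TFE3, MITF and TFEC.

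The CLEAR element, searched as TCACGTGA, was found in 6 of the 34 promoter regions of these genes (17.6%) and in 2.01% of the 11415 promoter regions of all genes. Within a fixed window of 200 bp around the centre of each region, which removes differences in length, the shares were 11.8% and 1.31%. These shares describe matching letters and not binding, and no test was made. The stretches around it are shown because this element is the known link between the MiT/TFE factors and lysosomal promoters. They were read from the RefSeq GRCm38.p6 assembly, on which mm10 is based, on the plus strand, with the element in capitals. The genes encode the pump subunits d of V0 (Atp6v0d1), e of V0 (Atp6v0e) and A of V1 (Atp6v1a), the hydrolases alpha-galactosidase A (Gla) and beta-hexosaminidase alpha (Hexa), and the calcium channel TRPML1 (Mcoln1).
Atp6v0d1 chr8:105566035-105566094: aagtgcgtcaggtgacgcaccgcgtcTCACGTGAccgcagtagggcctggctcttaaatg
Atp6v0e chr17:26676372-26676431: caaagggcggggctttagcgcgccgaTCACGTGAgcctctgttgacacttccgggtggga
Atp6v1a chr16:44139358-44139417: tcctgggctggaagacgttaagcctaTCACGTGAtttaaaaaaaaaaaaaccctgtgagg
Gla chrX:134601183-134601242: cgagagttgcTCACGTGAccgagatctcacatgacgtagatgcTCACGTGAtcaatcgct
Hexa chr9:59539605-59539664: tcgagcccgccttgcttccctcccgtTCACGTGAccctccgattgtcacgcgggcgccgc
Mcoln1 chr8:3500447-3500506: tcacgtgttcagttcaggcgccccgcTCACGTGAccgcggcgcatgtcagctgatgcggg

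The Gla promoter held 2 copies of the element within this stretch. Outside promoters, 2 of 145 regions held it (1.38%, against 0.343% of all regions outside promoters). One was the intergenic region at −17371 bp from the transcription start site (TSS) of Lamp2, a structural glycoprotein of the lysosomal membrane, where negative distances lie upstream of the TSS. It had a peak in all 4 libraries. The other lay at 272 bp in Atp6v1e1, the E subunit of the V1 stalk, and had a peak in a single IL-4 library.
Lamp2 chrX:38473613-38473672: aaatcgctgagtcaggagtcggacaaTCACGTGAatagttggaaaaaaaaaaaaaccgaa

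Other motifs were counted on both strands in the same way. The E-box CACGTG, the core of every CLEAR element, was in 35.3% of the promoter regions of the lysosomal genes and in 12.4% of all promoter regions. The AP-1 motif, TGACTCA or its reverse complement TGAGTCA, was in 24.0% of the 179 regions and in 18.1% of all regions. For GAGGAAGT, the motif of the macrophage factor PU.1, the shares were 11.2% and 9.87%. The STAT6 spacing, in which TTC and GAA stand 4 bases apart, was in 13 of the 179 regions (7.26%), close to its share of 7.22% over all regions. The spacing used by other STAT proteins, with 3 bases between, was in 5.03% against 6.90%.

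**Figure D1:**
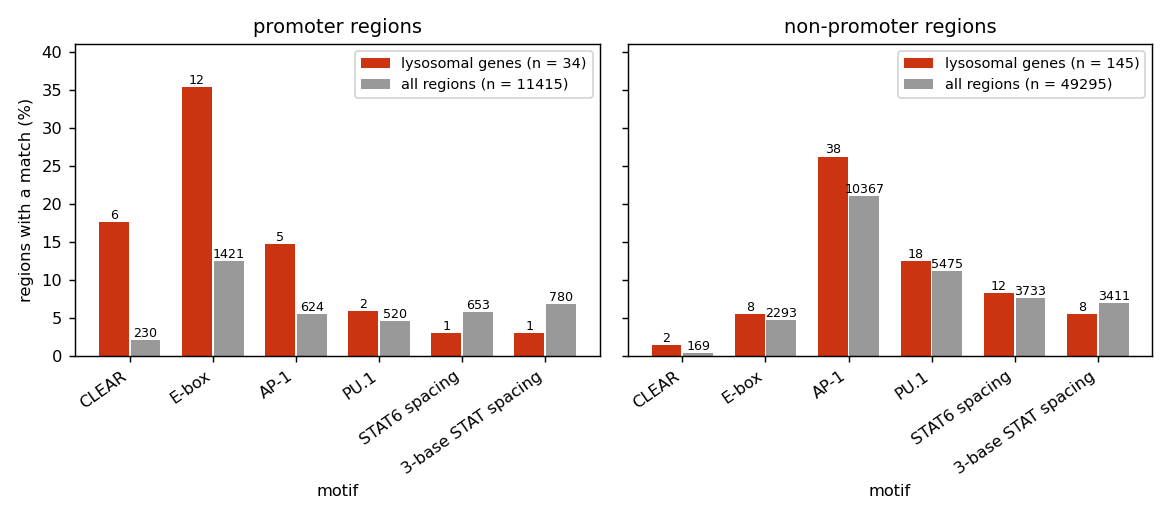
Share of regions with at least 1 motif match (vertical axis, %), for promoter regions on the left and the others on the right. Red bars are regions of the lysosomal genes, grey bars are all regions, and the number over each bar counts the regions with a match. In promoters the CLEAR element was in 6 of 34 regions against 230 of 11415.

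Peak height, the deposited score of a peak, was read as −log10 of its q-value. It reflects the evidence for a peak within its own library and grows with sequencing depth, which is unknown because the files hold no counts. The 4 libraries held 39462 to 45250 peaks, and the median height over the regions shared by all 4 lay between 8.86 in IL-4 replicate 2 and 12.5 in control replicate 1. Macrophage identity was checked at promoters. A promoter peak was present in all 4 libraries at 6 of 8 macrophage markers, with summed heights of 87.2 and 76.6 in control and 66.5 and 50.5 in IL-4 libraries, while Csf1r and Itgam had no promoter region. None of the 13 markers of T cells, B cells, neutrophils and fibroblasts had a promoter region. The dendritic cell markers Flt3 and Zbtb46 had promoter peaks in every library but IL-4 replicate 2, with sums of 7.76 to 12.8 in the others.

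Most of these genes had an open promoter in unstimulated BMDMs. A promoter region with a peak in all 4 libraries was found at 24 of the 38 genes, and the median of their mean heights was 13.7, near the 13.0 of all such promoters. Over single regions, 24 of 34 promoter regions were present in all 4 libraries (70.6%, against 69.4% of all promoter regions). The heights that follow are as deposited, before any scaling between libraries, for replicate 1 and then replicate 2 of each group. For reading them, the medians over all shared regions were 12.52 and 11.01 in control and 11.14 and 8.86 in IL-4 libraries. After quantile normalization, both IL-4 libraries stood above both control libraries at 3 of the 24 promoters (12.5%, against 20.1% of all such promoters). They stood below both at 6 (25.0%, against 15.0%). Groups that do not overlap were thus common among promoters of all genes.

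Among the subunits of V1, the ATP-hydrolyzing sector, Atp6v1a (catalytic A subunit) had promoter heights of 10.8 and 10.8 in control and 20.1 and 13.4 in IL-4 libraries. Both IL-4 libraries stood above both control libraries at this promoter. Atp6v1h, the regulatory H subunit, had heights of 14.2 and 13.6 in control and 10.8 and 16.4 in IL-4 libraries. Atp6v1g1, a G subunit of the peripheral stalk, varied little, with 8.3 and 10.1 in control and 10.1 and 8.98 in IL-4 libraries. Atp6v1c1, the C subunit that links stalk and membrane sector, had 11.7 and 8.17 in control and 10.3 and 7.24 in IL-4 libraries. The E subunit gene Atp6v1e1 had 11.7 and 4.71 in control and 6.05 and 11.04 in IL-4 libraries, and Atp6v1f, the F subunit of the central rotor, had 7.63 and 13.4 in control and 7.73 and 7.03 in IL-4 libraries. In these 5 the groups overlapped. The B subunit gene Atp6v1b2 had a promoter peak in 3 libraries, with heights of 8.57 and 13.04 in control and 4.62 in IL-4 replicate 1. Atp6v1g2, a G subunit known mainly from neurons, had a promoter peak in the control libraries alone (4.27 and 5.23), in a region that the files also place at Nfkbil1.

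In the membrane sector V0, the promoter of Atp6v0a1, which encodes the large a subunit that lines the proton path, had heights of 18.3 and 14.7 in control and 11.5 and 9.31 in IL-4 libraries. Here both IL-4 libraries stood below both control libraries, as they did at the d subunit gene Atp6v0d1 (11.1 and 11.8 in control and 9.0 and 7.53 in IL-4 libraries). Atp6v0b, a proteolipid of the rotor ring, had 4.8 and 12.6 in control and 10.7 and 9.1 in IL-4 libraries, so that control replicate 1 was the lowest of the 4 libraries. The e subunit gene Atp6v0e had heights of 4.49 and 8.89 in the control libraries and 9.27 in IL-4 replicate 1. Atp6v0c, the main proteolipid, had a promoter peak of 6.29 in control replicate 1 only. Both accessory proteins had a promoter peak in every library. Atp6ap2, also known as the prorenin receptor, had heights of 22.04 and 14.3 in control and 16.6 and 15.7 in IL-4 libraries, and Atp6ap1, an assembly factor of the pump, had 17.8 and 12.9 in control and 9.89 and 14.2 in IL-4 libraries.

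The 2 highest promoters belonged to lipid-degrading enzymes. Asah1, acid ceramidase, had heights of 32.97 and 31.5 in control and 36.3 and 32.6 in IL-4 libraries, a mean that exceeded 96.9% of all promoters with a peak in 4 libraries. Lipa, lysosomal acid lipase, had 35.5 and 29.2 in control and 35.3 and 16.98 in IL-4 libraries, with IL-4 replicate 2 far below the other libraries, and its mean exceeded 93.8% of all promoters. Among the glycosidases, Glb1 (beta-galactosidase) had 23.5 and 21.8 in control and 20.3 and 14.9 in IL-4 libraries, Gusb (beta-glucuronidase) had 24.04 and 15.4 in control and 17.2 and 11.4 in IL-4 libraries and Neu1 (sialidase) had 22.4 and 17.5 in control and 15.9 and 7.24 in IL-4 libraries. Glb1 and Neu1 had lower heights in both IL-4 libraries than in both control libraries. So did Gla, with 19.1 and 19.1 in control and 10.98 and 15.8 in IL-4 libraries, in a region that the files also place at Hnrnph2, although its groups overlapped after quantile normalization. The groups overlapped at Hexa, with 11.3 and 6.9 in control and 7.92 and 10.4 in IL-4 libraries. Psap, the precursor of the saposins that present lipids to these enzymes, had a promoter peak of 6.29 in control replicate 1 and of 2.66 in IL-4 replicate 2 and in no other library.

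Of the membrane proteins, Scarb2 (the carrier LIMP-2) had promoter heights of 22.6 and 24.5 in control and 21.2 and 27.2 in IL-4 libraries, and Npc1, which exports cholesterol from the lysosome, had 29.4 and 23.6 in control and 23.3 and 18.5 in IL-4 libraries. The groups overlapped at Scarb2 and not at Npc1. Cd68, a macrophage glycoprotein, had 20.1 and 17.2 in control and 11.97 and 16.7 in IL-4 libraries, with groups that overlapped after quantile normalization, and the tetraspanin gene Cd63 had 11.5 and 18.5 in control and 16.7 and 7.98 in IL-4 libraries. Lamp2 had 10.5 and 8.99 in control and 8.7 and 2.67 in IL-4 libraries, the lowest value again in IL-4 replicate 2. Mcoln1 had the lowest mean among the 24 promoters, with 4.7 and 5.6 in control and 6.65 and 7.89 in IL-4 libraries, and only 8.3% of all promoters had a lower mean. Its IL-4 libraries both stood above its control libraries. Laptm5, a membrane protein of blood cells, had a promoter peak in the control libraries alone (7.77 and 9.04), although an intronic region at 820 bp had a peak in all 4 (19.8 and 12.5 in control and 13.4 and 7.28 in IL-4 libraries).

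**Figure D2:**
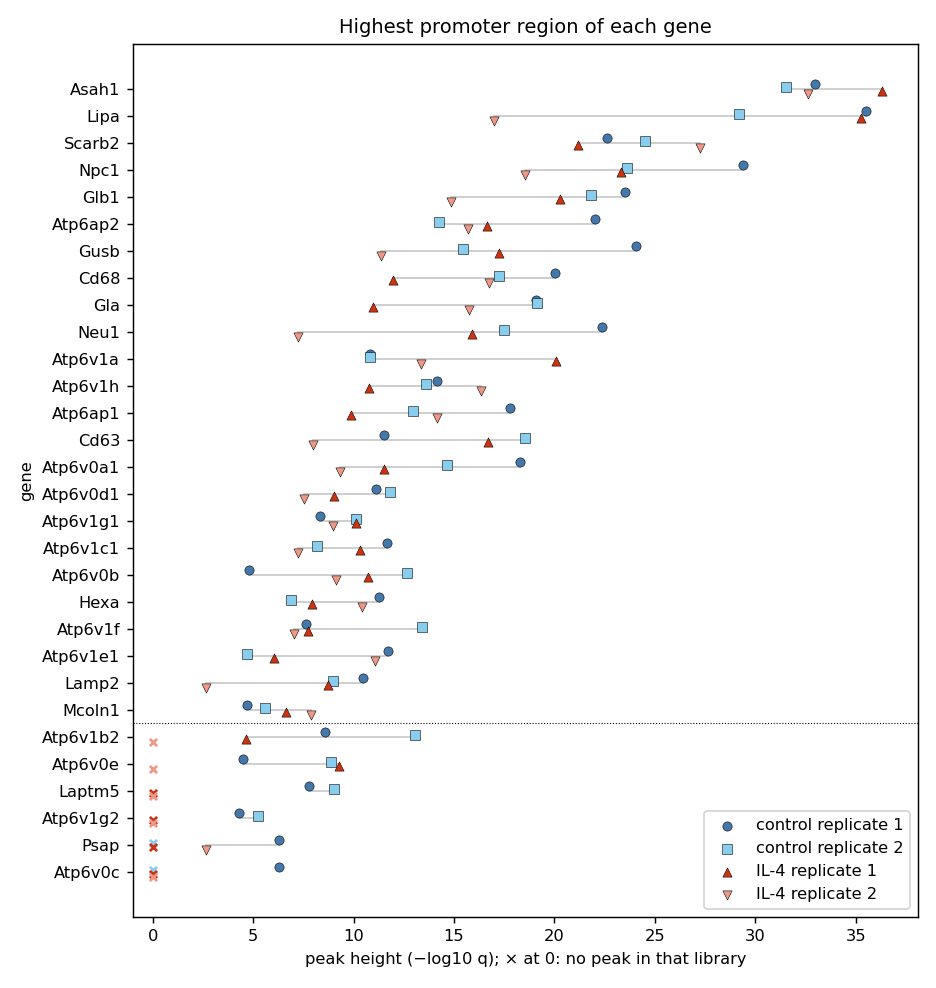
Height of the highest promoter region of each gene (horizontal axis, −log10 q), 1 symbol per library, with a cross at 0 where a library had no peak and a grey line from the lowest to the highest height. The 24 genes above the dotted line had a peak in all 4 libraries, from Asah1 (mean 33.4) to Mcoln1 (mean 6.21).

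Several members had no called region at the start site, which does not show that the site was closed. No region lay within 500 bp of the TSS of Atp6ap1l, Atp6v0a4, Atp6v0d2, Atp6v0e2, Atp6v1e2, Atp6v1g3 or Npc2, although each had at least 1 region elsewhere, nor at Atp6v1b1, Atp6v1c2 and Atp6v1fnb, which had none at all. Several of these are isoforms known from the kidney, testis or bone. The count for Atp6v0a2, another a subunit, rests on naming. A region at its TSS, chr5:124628846-124629254, had heights of 19.12 and 17.97 in control and 12.45 and 5.56 in IL-4 libraries, but the files assign it to Tctn2 at 30327 bp.

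Away from promoters, 65 of the 179 regions were intronic (36.3%, against 40.2% of all regions) and 73 were intergenic (40.8%, against 35.8%). Single genes held 1 to 15 regions, with the most at Atp6v1g3 (15), Atp6v1b2 (13) and Atp6v0d2 (10). Atp6v1g2, Cd68, Glb1 and Mcoln1 each had a single region, which lay at the promoter. Of the 65 introns, 7 belonged to a gene of another name, such as Pcm1 for 2 regions assigned to Asah1. A distance of over 50 kb to the TSS was found for 24 regions (13.4%, against 23.3% of all). Of the regions outside promoters, 40.0% had a peak in all 4 libraries, against 35.5% of all. Over all 179 regions, 82 had a peak in 4 libraries (45.8%, against 41.9%), 22 in 3, 33 in 2 and 42 in a single library (23.5%, against 29.6%). The share with a peak was 76.0% and 72.6% for control and 72.1% and 59.8% for IL-4 libraries. Over all regions it was 72.2% and 66.7% for control and 66.5% and 62.1% for IL-4 libraries.

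The highest regions included sites far from the genes they were assigned to. The region chr13:90515888-90516337, at 389277 bp from Atp6ap1l, had heights of 33.3 and 39.1 in control and 39.5 and 33.7 in IL-4 libraries, the highest mean of all 179. The gene is the one the files assign, and a link between this site and Atp6ap1l, an Atp6ap1-like gene, was not measured. The region at 48449 bp from Atp6v1c1 had 35.6 and 33.9 in control and 37.9 and 23.5 in IL-4 libraries. Beside Atp6v1g3, a kidney isoform of the G subunit, the region at 74924 bp had 34.4 and 26.3 in control and 28.1 and 29.9 in IL-4 libraries. In each of these the groups overlapped. With the promoters of Asah1 and Lipa, these were the 5 highest regions.

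No tested region of these genes passed the threshold after 1 h of IL-4. The 82 regions that all 4 libraries shared, from 33 genes, were compared in limma over all 25442 such regions after a log2 transform and quantile normalization. At an adjusted p under 0.05, 0 of 82 were higher and 0 were lower, where 0.0157% of all regions tested were higher and 0.00786% lower. The lowest adjusted limma p among the 82 was 0.242. In heights simulated from the means and spread of these libraries, the fit recovered 15% of planted log2 changes of 1. It recovered 63.5% of those of 1.5 and 99% of those of 2.5. The 0 of 82 therefore does not show that no region changed. At an unadjusted p under 0.05, 6 were higher (7.32%, against 4.12% of all) and 3 were lower (3.66%, against 4.15% of all). On normalized heights, both IL-4 libraries stood above both control libraries at 12 regions (14.6%, against 19.2% of all) and below them at 19 (23.2%, against 18.6% of all). The log2 changes ran from −1.38 to 1.54 with a median of −0.05, beside −0.001 over all regions, and a median standard error of 0.44. The median was 0.05 for the 42 regions of pump genes and −0.16 for the 40 of the listed genes. At the 24 promoters it was −0.12, with 11 positive and 13 negative, beside 0.04 over all promoters.

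**Figure D3:**
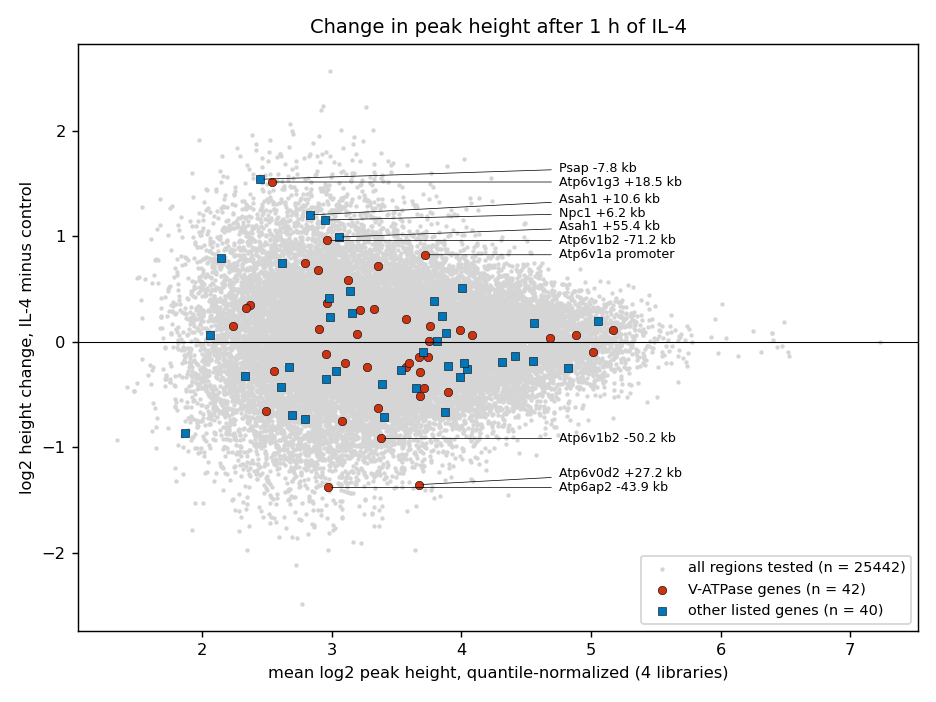
Log2 change in peak height (vertical axis, IL-4 minus control) against the mean log2 height over 4 libraries (horizontal axis), both after quantile normalization. Grey dots are all 25442 regions tested, red circles the 42 regions of pump genes and blue squares the 40 of the listed genes. The 10 labelled regions had the lowest p, and none passed the adjusted threshold.

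The region with the lowest p lay in an intron of Atp6v0d2, a d subunit of V0 known from osteoclasts and macrophages. At chr4:19895222-19895504, 27240 bp from the TSS, heights were 26.6 and 17.6 in control and 7.86 and 6.78 in IL-4 libraries. The groups did not overlap, and the log2 change was −1.35 ± 0.39 (SE) with an unadjusted limma p of 0.000915 and an adjusted p of 0.242. With peaks within 500 bp merged, which joins the site with others nearby, the change was −0.63 ± 0.33 with an adjusted limma p of 0.614. Its neighbours in the gene had other values. The region at 27754 bp had 10.7 and 7.04 in control and 12.1 and 12.3 in IL-4 libraries and a log2 change of 0.72 ± 0.44, with an adjusted limma p of 0.697. The region at 26771 bp had 8.67 and 8.89 in control and 5.92 and 7.86 in IL-4 libraries, a log2 change of −0.11 ± 0.50. The difference between these neighbours was not tested. The sequence of the site is shown because it had the lowest p. It held no match to the STAT6 spacing, AP-1, PU.1 or CLEAR motif. The capitals mark TCACATG, the M-box bound by MITF, a motif that was added after the sequences had been seen. It was in 10.1% of the 179 regions and 5.22% of all. The neighbour at 27754 bp, with its positive change, held the same motif, and the one at 26771 bp did not.
Atp6v0d2 chr4:19895222-19895504, GRCm38.p6, plus strand: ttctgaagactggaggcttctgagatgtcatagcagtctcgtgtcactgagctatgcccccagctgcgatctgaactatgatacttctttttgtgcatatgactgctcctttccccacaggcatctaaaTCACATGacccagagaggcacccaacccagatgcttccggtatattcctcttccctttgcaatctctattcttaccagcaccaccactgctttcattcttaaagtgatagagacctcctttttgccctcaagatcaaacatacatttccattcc

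**Figure D4:**
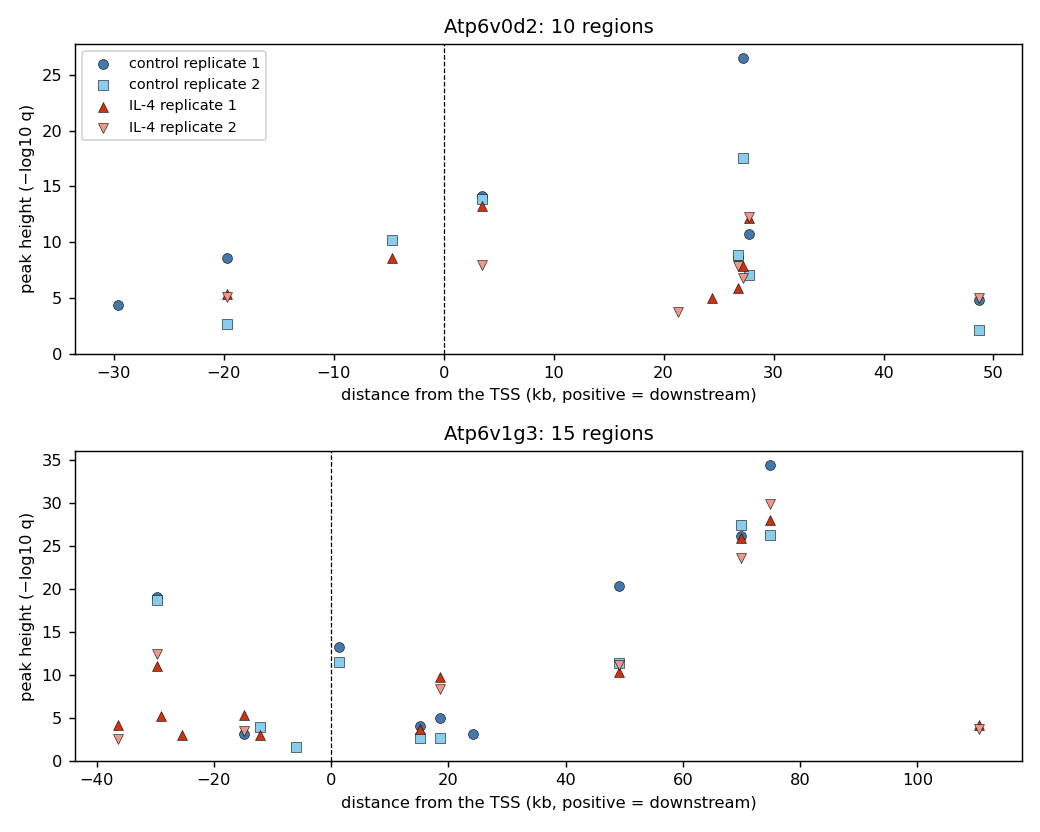
Peak height (vertical axis, −log10 q) of every region of Atp6v0d2 (10 regions) and Atp6v1g3 (15 regions) by distance from the TSS in kb (horizontal axis, positive downstream), 1 symbol per library and the TSS as a dashed line. Neither gene had a region at its TSS. Near 27 kb in Atp6v0d2 the control symbols stand at 26.6 and 17.6 and the IL-4 symbols at 7.86 and 6.78.

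The rest of the 10 regions with the lowest p had changes in both directions. Upstream of Psap, at −7825 bp, heights were 4.17 and 2.81 in control and 8.12 and 8.98 in IL-4 libraries. The groups did not overlap, and the log2 change was 1.54 ± 0.54, with an adjusted limma p of 0.389. Downstream of Atp6v1g3, at 18516 bp, heights of 4.97 and 2.66 against 9.73 and 8.34 gave 1.51 ± 0.54 and an adjusted limma p of 0.389. Upstream of Atp6ap2, at −43870 bp, heights of 13.1 and 14.4 against 7.96 and 2.49 gave −1.38 ± 0.51 and an adjusted limma p of 0.415. At the last site IL-4 replicate 2 was much lower than IL-4 replicate 1, and without it the change was −0.70.

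In an intron of Npc1, at 6237 bp, heights of 8.03 and 3.82 against 14.01 and 7.95 (control against IL-4) gave a log2 change of 1.15 ± 0.51 and an adjusted limma p of 0.543. In an intron of Asah1, at 10597 bp, heights of 9.34 and 2.66 against 15.2 and 6.43 gave 1.20 ± 0.54 and an adjusted limma p of 0.553. Without control replicate 2 the change was 0.74 at the Npc1 site and 0.44 at the Asah1 site, and the latter was 1.94 without control replicate 1 and 0.77 without IL-4 replicate 1. At both sites the deposited heights overlapped between groups and separated only after normalization. The Atp6v1a promoter, the only promoter among the 10, had a log2 change of 0.82 ± 0.38 with an adjusted limma p of 0.561. A site at 55440 bp from Asah1 that lies within Pcm1 had heights of 5.66 and 7.19 against 12.1 and 9.62, a change of 0.99 ± 0.49 and an adjusted limma p of 0.594. The 2 sites upstream of Atp6v1b2 differed in sign. At −50233 bp, within Slc18a1, heights of 12.3 and 19.3 against 10.4 and 4.73 gave −0.92 ± 0.45 and an adjusted limma p of 0.5903, and the change was −0.50 without control replicate 2 or without IL-4 replicate 2. At −71157 bp, heights of 5.53 and 6.78 against 12.7 and 7.86 gave 0.96 ± 0.50 and an adjusted limma p of 0.626.

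The promoters with a CLEAR element differed in sign. Of the 5 that had a peak in all 4 libraries, the log2 change was 0.82 at Atp6v1a, 0.75 at Mcoln1 and 0.27 at Hexa, and it was −0.24 at Atp6v0d1 and −0.34 at Gla. The distal CLEAR region of Lamp2 had heights of 16.2 and 10.6 in control and 18.8 and 11.4 in IL-4 libraries and a change of 0.38. No adjusted limma p among these 6 was below 0.561.

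A few regions were detected in each library of one group and in no library of the other. Such IL-4-only regions numbered 4 of 179 (2.23%, against 2.53% of all regions). The first lay between genes at −15234 bp from Atp6v0a1, with heights of 8.65 and 8.12 in the IL-4 libraries, and its next gene was Cavin1 at 23611 bp. It is shown because it held 2 matches to the STAT6 spacing (capitals) and 1 to AP-1, and no other IL-4-only region of these genes held the spacing. It also held 1 match to the M-box, the motif added after the sequences had been seen. Repeats were not masked in the motif search, and whether these matches lie in a repeat was not checked.
Atp6v0a1 chr11:100994115-100994342, GRCm38.p6, plus strand: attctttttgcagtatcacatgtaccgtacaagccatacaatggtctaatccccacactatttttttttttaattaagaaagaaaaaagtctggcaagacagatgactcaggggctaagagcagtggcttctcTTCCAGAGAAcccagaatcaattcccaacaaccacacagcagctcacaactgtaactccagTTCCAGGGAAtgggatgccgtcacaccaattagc

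The second lay in an intron of Atp6v1d, the D subunit of the central rotor, at 642 bp (7.09 and 8.55), and it was the only region of that gene. The others lay at −36312 bp (4.11 and 2.49) and 110584 bp (4.11 and 3.73) from Atp6v1g3 and were weak.

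Control-only regions numbered 12 of 179 (6.70%, against 4.33% of all regions). Atp6v1g3 had the highest, at 1427 bp in an intron, with heights of 13.2 and 11.5. Besides the promoter regions of Laptm5 and Atp6v1g2, there was a second promoter region of Npc1 at −711 bp (9.44 and 5.25). Scarb2 had 2, at 1165 bp (5.26 and 6.09) and at −19487 bp (4.56 and 2.51). Among hydrolases, Asah1 had one at 54104 bp within Pcm1 (6.88 and 5.84) and Gusb one at 7589 bp (7.71 and 4.39). Npc2, a soluble cholesterol carrier, had one at 11593 bp (5.58 and 4.93). The pump genes added Atp6v1a at 15501 bp (5.03 and 6.06), Atp6v1c1 at 63997 bp (6.96 and 2.56) and Atp6ap2 at 3889 bp (3.45 and 3.02). IL-4 replicate 2 had the fewest peaks and the lowest median height of the 4 libraries. Without it, absence from IL-4 replicate 1 alone was enough, so the count could not fall, and 15 regions were control-only. The share over all regions was not counted under that rule. The part of this library in the control-only count was not tested. The intronic Atp6ap2 region held 1 match to the STAT6 spacing.

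**Figure D5:**
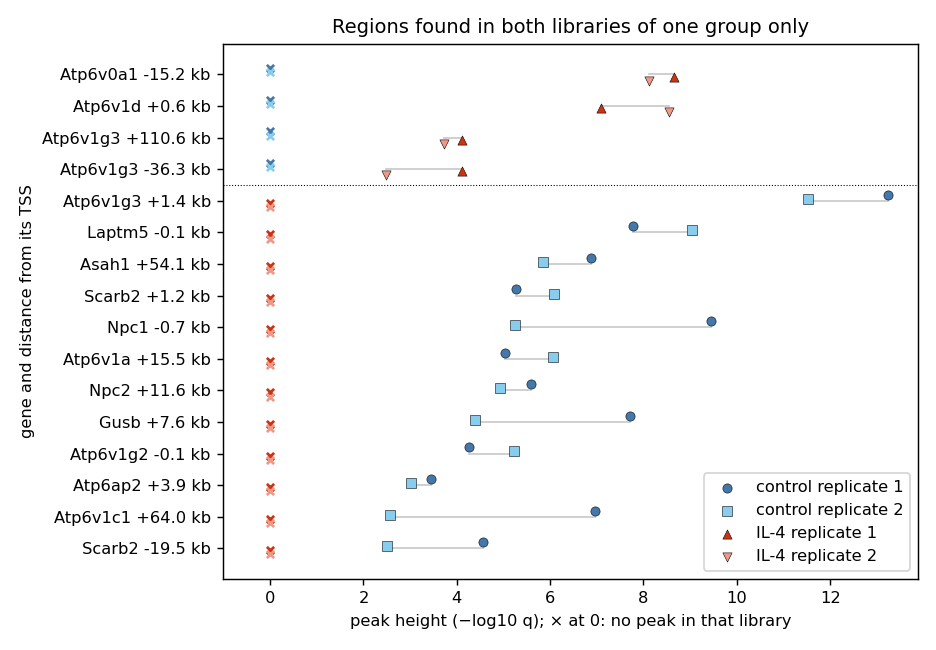
Heights (horizontal axis, −log10 q) of the 4 IL-4-only regions above the dotted line and the 12 control-only regions under it, 1 symbol per library and a cross at 0 where no peak was found. The control-only region of Atp6v1g3 had the highest values, 13.2 and 11.5, and the IL-4-only region of Atp6v0a1 had 8.65 and 8.12.

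Beside these 2, the STAT6 spacing was found in 10 regions that both libraries of a group detected, and each had a peak in at least 1 control library as well. The Asah1 promoter and the region at 48449 bp from Atp6v1c1 have been described above. At 3500 bp in Atp6v0d2 heights were 14.2 and 13.9 in control and 13.3 and 7.99 in IL-4 libraries, and at 19057 bp in Atp6v1a they were 19.1 and 14.2 in control and 13.9 and 6.88 in IL-4 libraries. Both sites were lower in value in the IL-4 libraries, with log2 changes of −0.20 and −0.52. The region at −17461 bp from Atp6v1c1 had 14.8 and 13.4 in control and 13.8 and 7.31 in IL-4 libraries. At 25185 bp in Lamp2 heights were 7.96 and 8.15 in control and 9.24 and 6.76 in IL-4 libraries. An intronic site at 12244 bp in Npc1 was the highest of these outside promoters after that of Atp6v1c1, with 28.6 and 19.5 in control and 20.2 and 17.9 in IL-4 libraries. Adjusted limma p-values of these regions were 0.7797 or more. The others, at −14785 bp from Atp6v1g3, 10429 bp in Npc2 and −24810 bp from Psap, had no peak in control replicate 2 and heights of 3.11 to 9.62 elsewhere.

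The same fit was read for other lysosomal genes. A list of 60 genes held the cathepsins, further hydrolases and channels, the MiT/TFE factors and the nutrient-sensing Ragulator and Rag proteins. It had 274 regions at 59 genes, and 122 of these were shared by all 4 libraries. None was past the adjusted limma threshold, and at an unadjusted p under 0.05 there were 3 higher (2.46%, against 4.12% of all) and 8 lower (6.56%, against 4.15% of all), with a median log2 change of 0.04. The lowest adjusted limma p was 0.414, at an intron of the cathepsin gene Ctsz, where the log2 change was 0.97 ± 0.36 (SE). IL-4-only regions numbered 8 of 274 (2.92%, against 2.53% of all regions) and control-only regions 13 (4.74%, against 4.33%), both near the share over all regions. Of these 8, 3 lay at Tfec, the MiT/TFE factor known from macrophages. They were its promoter, with heights of 18.8 and 4.05 in the IL-4 libraries, and introns with 7.02 and 3.61 and with 4.11 and 5.05. Mitf had an intronic one with 4.41 and 4.32.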

How the data were processed

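ATAC-seq was carried out on 4 BMDM libraries, 2 control and 2 stimulated with IL-4, grouped by the labels. Per the labels and the methods, the authors aligned reads to mm10 with BWA (0.7.10), handled alignments with SAMtools (0.1.19), called peaks in each library with MACS2 (2.0.10), removed blacklisted sites and annotated peaks with HOMER (4.2). Replicates were not pooled. Handling of the Tn5 cut offset and of duplicates is not given in the sources used here. The deposited peak score has no stated unit and was read as −log10 of the q-value, since its minimum is 1.3 or 1.32 in every library, close to −log10 of 0.05. The stated cut-off of the authors would give a minimum of 2, and 133 to 603 peaks per library were lower. The files hold no counts, so depth is unknown and no count test was run.

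Overlapping peaks of chromosomes 1 to 19, X and Y were merged, each region taking its highest score per library. For regions that all 4 libraries shared, log2 heights were quantile-normalized and tested in R 4.3.3 with limma 3.58.1 (a trended eBayes fit without a block, two-sided, Benjamini-Hochberg over all these regions, threshold 0.05), after the script had been tested on simulated data. Regions lacking a peak in a library are outside this test. Start sites and sequence came from RefSeq GRCm38.p6, read with pyfaidx 0.9.0.4. Named are each gene's highest promoter region, the 10 lowest p, the 5 highest regions, the group-specific regions, and those with a STAT6 spacing or CLEAR match in both libraries of a group. Members and lists were chosen with earlier results of these data known.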

Additional observations from a re-analysis of the deposited data

How the results depend on the processing

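The count of lysosomal regions past the adjusted threshold stayed at 0 under every alternative of the limma fit that kept all 4 libraries. The 10 regions with the lowest p kept their direction under every alternative that gave them a value, but not their size. These 10 were chosen for a low p in the same data, with groups that did not overlap after normalization. That choice largely fixed the direction. Without one library the log2 change ran from 0.436 to 1.937 at 10597 bp of Asah1, from −2.021 to −0.702 at −43870 bp of Atp6ap2, from −1.364 to −0.496 at −50233 bp of Atp6v1b2 and from 0.739 to 1.529 at 6237 bp of Npc1, and it was −0.634 at 27240 bp of Atp6v0d2 with peaks within 500 bp merged. The median log2 change was small and its sign varied: −0.046 as reported, 0.017 with median centring (0.03 over all regions), 0.002 with peaks within 500 bp merged, −0.138 for regions within 50 kb of the TSS, −0.119 for peaks at or above the pooled median score, −0.18 for regions in at least 2 libraries with absent heights set to the lowest score, and −0.107 to 0.022 without one library. The number at an unadjusted p under 0.05, reported as 9, was 22 with regions in at least 2 libraries (9 higher and 13 lower of 137, where 11.3% of all regions reached that p), 1 with peaks at or above the pooled median score, and 5 to 10 without one library, the 5 without control replicate 2. The 1 at the pooled median score was of 36 tested, where 7.04% of all regions reached an unadjusted limma p under 0.05. At that score the 179 regions fell to 102, those in all 4 libraries from 82 to 36 and the control-only regions from 12 to 6. Without one library, fewer libraries had to match, and there were 6 to 17 IL-4-only and 15 to 27 control-only regions, the 17 without IL-4 replicate 2 and the 27 without control replicate 2. The shares over all regions were not counted under that rule, so these numbers cannot be read as an excess. Without one library, 84 to 95 regions had a peak in all the others and were tested. Each of these fits leaves 1 library in a group, which has no spread of its own. Their counts of 5 to 10 at an unadjusted p under 0.05 therefore cannot be read as a gain or loss against the 9.

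The labels do not say whether libraries of the same replicate number share an animal or a day. The replicate differences of the groups were nearly uncorrelated (Pearson r = 0.0068 over 25442 regions, which are not independent). With 2 libraries per group, this correlation cannot show whether the libraries are paired, so the fit was also run with the replicate number as a block. The replicate block gave 0 of 82 lysosomal regions past the threshold. At an unadjusted limma p under 0.05 it gave 6 higher and 3 lower, where 8.6% of all regions reached that p. The calls over all regions went from 4 higher and 2 lower to 11 and 3. Without the variance trend no region of any gene was called. Depth limits all of this, since heights are not counts and a missing peak is not a measured absence.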

Other observations

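A few values lie beside the genes of the report. The start site of Atp6v1a faces that of Naa50, and a region assigned to Naa50 within 500 bp of the Atp6v1a TSS had heights of 6.62 and 3.63 in control and 4.08 and 5.97 in IL-4 libraries, so the groups overlapped there while they did not at the Atp6v1a promoter region. Around Atp6v1g3, the gene next nearest to all 15 regions was Ptprc, which encodes the leukocyte antigen CD45, at 62101 to 209032 bp. Of the MiT/TFE factors other than Tfec, Tfeb had 2 intronic regions among the other lysosomal regions with the lowest limma p. Their signs were opposite, namely a log2 change of −0.99 ± 0.37 (SE) with an adjusted limma p of 0.418 and one of 1.00 ± 0.43 with an adjusted limma p of 0.531. Any other tested region of Tfeb is not listed here. Tfe3 had a control-only region with heights of 5.36 and 3.78.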
